A study of Mus musculus with 14 samples.

Results

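The genes described here encode the Tal1 complex, a DNA-binding complex of blood-forming cells, and were examined with 20 kb on either side. The 6 members were fixed by name as Tal1, Lyl1, Tcf3, Lmo2, Ldb1 and Cbfa2t3, out of 21887 protein-coding genes, and the rule itself used no measured value, though it was set with earlier results of these data known. All 6 were found in the RefSeq gene table of GRCm38.p6. The measurements are ChIP-seq peaks in mouse G1ER erythroblasts, of the transcription factors GATA2 and RUNX1 and of elongating RNA polymerase II (phosphorylated at serine 2 of its tail, S2P). This line lacks endogenous GATA1 and carries an estradiol-responsive GATA1 fusion. The compared groups were wild-type (WT) cells and Chd7-/- cells (KO), Chd7 being a chromatin remodelling ATPase, and both genotypes share the G1ER background. GATA2 and RUNX1 had 1 library each per genotype and S2P had 1 list per genotype, named for 2 replicates. No sample had a dose or time of its own: the protocol names estradiol, for 48 hours, in a differentiation assay and does not say whether the ChIP cells received it. The labels do not say how many KO clones were used.

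TAL1 and its paralog LYL1 are basic helix-loop-helix (bHLH) proteins that bind E-box sequences as dimers with E proteins such as those encoded by Tcf3 (E2A). The LIM-only protein LMO2 bridges this dimer to GATA factors, LDB1 binds LMO2 and self-associates to hold distant sites together, and CBFA2T3 (ETO2) adds corepressor activity. In erythroid cells the complex occupies composite E-box and GATA elements, and GATA2 and RUNX1 act at many of the same regulatory regions in progenitors.

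The lists held 28952 to 80611 peaks for the factors and 163620 to 165206 for S2P, and median factor summits rested on 23 to 38 fragments. Fragment numbers reached at most 286 in WT and 282 in KO, 2 times the narrowest peak width of each list, so differences between the strongest summits can be understated. S2P peaks overlapped 9 of 10 erythroid marker genes in each genotype, Slc4a1 being at 0. Coverage reached at least 50% at only 4 of these 10 in each genotype. Its median over the 10 was 28.2% in WT and 39.7% in KO, and its sum 419% and 460%. Mast cell markers were overlapped at 1 of 5 genes (Cpa3, 54.5% and 39.8%), megakaryocyte markers at 1 of 5 and myeloid markers at 2 of 6. All 5 lymphoid and all 4 stromal and endothelial markers were at 0 in both lists. Chd7 itself had 0% S2P coverage in both genotypes and thus gave no check of the labels. With 1 list per target and genotype, no difference between genotypes was tested, and intervals cover counting error only.

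Promoter sequences are shown for some of the members where a peak overlapped the bases just before a listed transcription start. They let the summits be set against the letters beneath them. RefSeq (GRCm38.p6) listed 9 starts for 5 members, and Lmo2 was missing. Peaks overlapped 7 of the 9 stretches of 250 bases before a start, a share that was not computed over all listed starts. Searched on both strands were the GATA words AGATAA and AGATAG and TGATAA and TGATAG, the RUNX words TGTGGT and TGCGGT, and the E-box CAGATG. Of 32817 such stretches over all listed starts, 26.6% held a GATA word, 18.6% a RUNX word and 14.5% this E-box. Among the 9 member stretches, 3 held a GATA word, 1 a RUNX word and 1 this E-box. Overlapped but not shown are the stretches of Lyl1, Tcf3 and the Ldb1 start at 46045311, which held none of these words. The WT GATA2 peaks overlapping those of Lyl1 and Tcf3 had 279 and 271 fragments. Capitals mark the words found, none of which overlapped another.

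At the first Cbfa2t3 start (minus strand, start at 122699109) a RUNX word and a GATA word, both read from the opposite strand, stood side by side 124 and 118 bases before the start. GATA2 summits lay at -113 in WT and -125 in KO, and RUNX1 summits at -122 and -134, over or beside this pair. Such a pair without a gap or overlap occurred in 10 of the 32817 stretches (0.0305%). The CAGATG E-box began at -177. The 30 bases at chr8:122699213-122699242, minus strand, are:
Cbfa2t3: ccgacccccACCGCATTATCActgtgacac

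Ldb1 has 3 listed starts on the minus strand. Before the start at 46037070 stood 2 GATA words, at -240 and -200, on either side of the GATA2 summits at -228 in WT and -230 in KO. At least 2 GATA words were found in 6.41% of all stretches. Before the start at 46039621 no searched word was found, and RUNX1 summits without GATA2 lay at -55 and -42. These stretches, at chr19:46037071-46037320 and chr19:46039622-46039871, differ in G and C content, with 53.2% and 68.4%:
Ldb1 start with both factors: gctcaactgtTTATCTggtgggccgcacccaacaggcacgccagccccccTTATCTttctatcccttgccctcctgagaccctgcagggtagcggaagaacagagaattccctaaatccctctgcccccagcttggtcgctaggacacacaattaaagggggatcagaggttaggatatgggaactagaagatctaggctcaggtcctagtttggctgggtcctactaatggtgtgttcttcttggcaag
Ldb1 start with RUNX1 alone: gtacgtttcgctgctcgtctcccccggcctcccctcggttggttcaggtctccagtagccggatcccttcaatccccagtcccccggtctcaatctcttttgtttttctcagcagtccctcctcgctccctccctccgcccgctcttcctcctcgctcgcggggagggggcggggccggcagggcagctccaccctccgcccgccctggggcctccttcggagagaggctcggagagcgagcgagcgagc

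At the first Tal1 start (plus strand, chr4:115056176-115056425) 1 GATA word lay at -205, whereas the GATA2 summits lay after the start, at 260 bases in WT and 255 in KO. The stretch reads:
Tal1: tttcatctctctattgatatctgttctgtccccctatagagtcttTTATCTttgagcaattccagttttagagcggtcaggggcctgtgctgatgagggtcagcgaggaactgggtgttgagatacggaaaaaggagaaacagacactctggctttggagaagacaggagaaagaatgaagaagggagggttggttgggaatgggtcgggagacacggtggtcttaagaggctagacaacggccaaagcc

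GATA2 and RUNX1 were present at all 6 genes in both genotypes, and at most of them more densely than at the average gene. At least 1 GATA2 peak was found within the same distance of 70.8% of all protein-coding genes in WT and 74.3% in KO, and at least 1 RUNX1 peak near 59.3% and 61.2%, so presence alone sets the members little apart. In all, the 6 windows contained 50 GATA2 peaks in WT against 60 in KO, and 49 RUNX1 peaks against 68. Medians per member were 8 and 10 for GATA2 against 2 and 3 over all genes, and 8 and 11 for RUNX1 against 1 and 1. Per 10 kb of window, the members' medians were 1.25 and 1.56 GATA2 peaks and 1.23 and 1.74 RUNX1 peaks, whereas all genes had 0.295 and 0.393, and 0.166 and 0.198. Lyl1 and Lmo2 departed from the others in opposite ways. RUNX1 peaks in the Lyl1 window were denser than in 99.8% of genes in WT, and its GATA2 peaks denser than in only 60.4%. Lmo2 had GATA2 peaks denser than 90.96% of genes in WT and RUNX1 peaks denser than 64.1%.

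**Figure D1:**
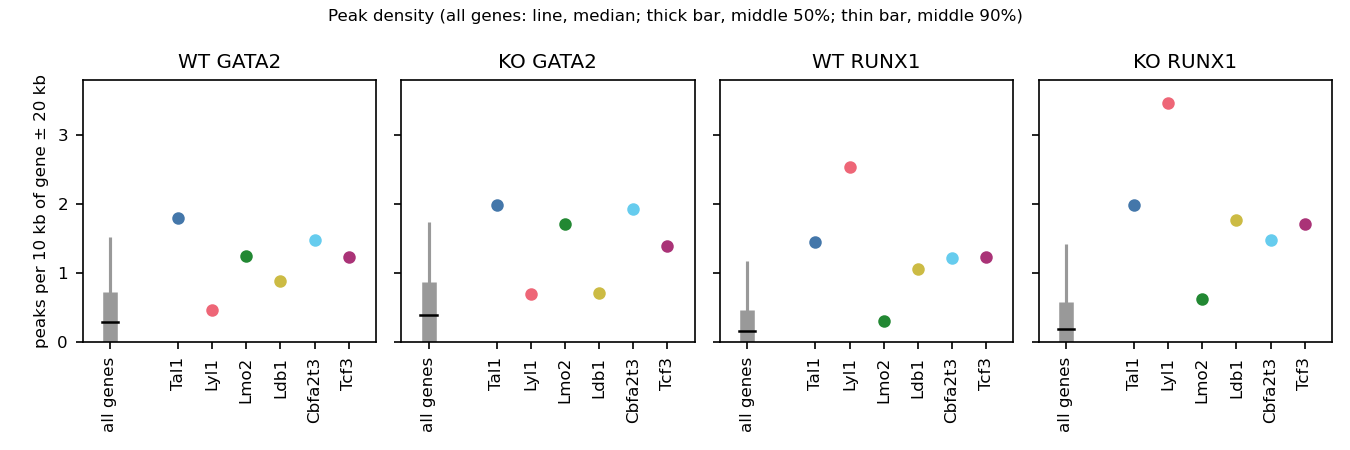
Peaks per 10 kb of gene and 20 kb on either side, for the 6 members (points) and all protein-coding genes (line, median; thick bar, middle 50%; thin bar, middle 90%), in the 4 factor lists. Lyl1 is highest for RUNX1, with 2.54 peaks per 10 kb in WT and 3.46 in KO, and lowest for GATA2, with 0.462 and 0.693.

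The KO lists, which were longer, held more peaks at most members. GATA2 peaks were more numerous in KO at 5 of 6 members, against 41.8% of all genes, and fewer at Ldb1 alone, against 13.8%. RUNX1 peaks were more numerous in KO at 6 of 6 members, against 31.8% of all genes, and fewer at 0, against 9.22%. A gene with many peaks has more room for such a difference, and the members were not compared with genes of equal peak number. Merged over the 4 lists, the peaks formed 109 sites, of which 20 were called in all 4 lists. Another 21 sites held GATA2 alone in both genotypes, 25 held RUNX1 alone in both, and 33 were seen in KO alone against 6 in WT alone. Such sites were not counted over the whole lists. There, 68.8% of KO GATA2 and 69.6% of KO RUNX1 peaks were also called in WT. Of the WT peaks, 81.5% and 86.6% were also called in KO, so the whole KO lists held more unshared peaks too. Sites of all 4 lists were stronger by their medians than sites of 1 list, though they included summits of 21 RUNX1 and 32 GATA2 fragments. At the 20 sites of all 4 lists the median GATA2 summit had 152.5 fragments in WT and 173.5 in KO. At the 18 sites found in the KO RUNX1 list alone the strongest summit had 51 fragments, and at the 14 found in the KO GATA2 list alone it had 34.

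**Figure D2:**
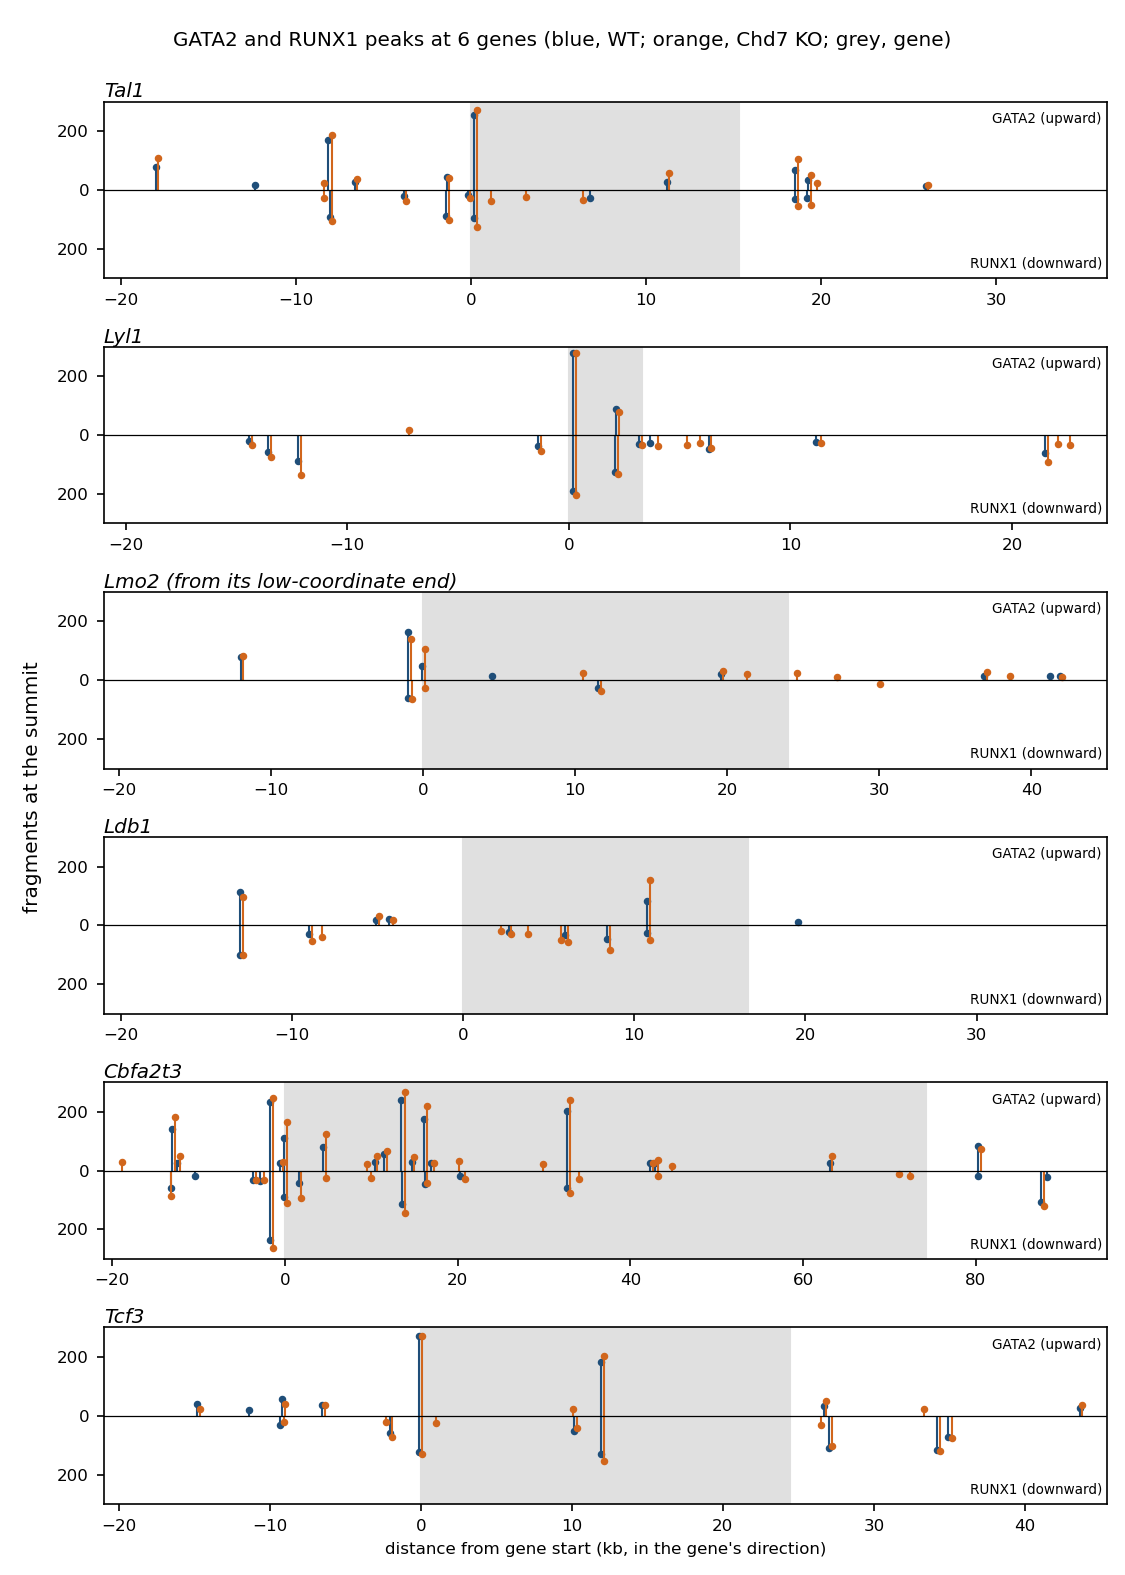
Fragments at each GATA2 summit (upward) and RUNX1 summit (downward) in WT (blue) and KO (orange), by distance from the gene start in kb, with the gene in grey and WT and KO drawn slightly apart. The tallest summits stand at the same places in both genotypes, such as 279 GATA2 fragments in WT and in KO at Lyl1, whereas summits in 1 genotype alone are short.

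Tal1 (chromosome 4, 115056426 to 115071755), which encodes the bHLH factor the complex is named for, had its strongest GATA2 peak just inside the gene. In WT this summit at 0.26 kb held 253 fragments (95% interval 223 to 286), and in KO it held 270 (239 to 304), ranking in the top 0.782% and 0.623% of the lists by q. RUNX1 at the same place had 96 and 125 fragments. Both genotypes thus had this GATA2 summit close to the highest value the lists reach. A second co-occupied site at -8.07 kb had 171 WT and 187 KO GATA2 fragments and 92 and 106 RUNX1 fragments. Next to the gene, at -1.29 kb, RUNX1 exceeded GATA2 in fragments, with 87 and 101 against 44 and 39. Past the gene's end, where the Tal1 stem cell enhancer is known to lie, a pair of sites at 18.6 and 19.3 kb carried both factors in both genotypes. GATA2 had 67 and 34 fragments there in WT and 104 and 49 in KO, and RUNX1 had 30 and 28 in WT and 56 and 50 in KO. At this pair every value was higher in KO, while the intervals overlapped between genotypes. A GATA2 summit at 11.3 kb, within the gene, had 26 (17.0 to 38.1) fragments in WT against 56 (42.3 to 72.7) in KO, intervals that lay apart. By deposited fold enrichment that summit differed by only 0.09 on the log2 scale, so its local background was higher in KO as well. RUNX1 peaks called in KO alone lay at 1.04 kb (37 fragments), 3.05 kb (23) and -8.50 kb (26), GATA2 peaks in KO alone at -8.48 kb (23) and 19.7 kb (23), and a GATA2 peak in WT alone at -12.3 kb (18).

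Lyl1 (chromosome 8, 84701423 to 84704716), the shortest member, encodes the paralog of TAL1 and had its strongest GATA2 summit just inside the gene. It lay 0.25 kb inside the gene with 279 fragments (247 to 314) in either genotype, close to the highest value the lists reach, and ranked in the top 2.19% and 2.68% by q, behind the Tal1 summit. RUNX1 at this site had 190 (164 to 219) and 204 (177 to 234) fragments in WT and KO. A second shared site at 2.2 kb had 87 and 80 GATA2 fragments and 126 and 133 RUNX1 fragments. The intervals overlapped between genotypes at both sites. By deposited fold enrichment the second was lower in KO, by -1.03 for GATA2 and -0.72 for RUNX1 on the log2 scale. The window held only 1 other GATA2 peak, at -7.26 kb in KO, with 19 fragments. RUNX1 had 11 peaks in WT, all of which were also called in KO, and 15 in KO. Of the WT peaks 7 lay outside Lyl1 in other genes, among them Trmt1, Nacc1 and Nfix, so the RUNX1 density of this window is not that of Lyl1 alone. The RUNX1 summit at -12.2 kb, in Trmt1, had 88 fragments (70.6 to 108) in WT against 134 (112 to 159) in KO, intervals that lay apart.

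Tcf3 (chromosome 10, 80409541 to 80433976) encodes the E proteins that dimerise with TAL1 and LYL1, and the median log2 KO over WT of its shared summits was near 0, at -0.08 for GATA2 and 0.01 for RUNX1. With fragments divided by their median over shared summits these were -0.24 and -0.21, lower than at most members. Its promoter-side site had 271 WT and 272 KO GATA2 fragments, with RUNX1 at 123 and 129. By deposited fold enrichment this site was lower in KO, by -0.59 for GATA2 and -0.54 for RUNX1 on the log2 scale. An intragenic site at 12.04 kb had 184 (158 to 213) and 204 (177 to 234) GATA2 fragments and 131 (110 to 155) and 154 (131 to 180) RUNX1 fragments. These values overlapped between genotypes for both factors. RUNX1 also marked 3 sites past the gene's end, at 27.1, 34.3 and 35.02 kb, with 110, 115 and 73 fragments in WT and 103, 118 and 75 in KO. The farthest of these lay in the neighbouring gene Mbd3. Upstream, GATA2 summits at -9.11 and -14.7 kb had 58 and 40 fragments in WT and 39 and 24 in KO, at least 1.5 times lower in KO by scaled fragments. Their intervals overlapped, and by deposited fold enrichment they differed by -0.40 and -0.27 on the log2 scale. Of 8 shared RUNX1 summits at Tcf3, 0 differed by at least 1.5 times, and 1 was lower by that much after division by the median.

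Lmo2 (chromosome 2, 103957903 to 103981878), the gene of the LIM-only bridging protein, was marked mainly by GATA2. Positions are given from its low-coordinate end. The strongest GATA2 summit, at -0.888 kb, had 163 (139 to 190) fragments in WT against 140 (118 to 165) in KO, and RUNX1 there had 59 (44.9 to 76.1) and 62 (47.5 to 79.5). An adjacent GATA2 summit at 0.01 kb had 48 (35.4 to 63.6) fragments in WT against 106 (86.8 to 128) in KO. The intervals of this summit did not overlap between genotypes, and RUNX1 was called on it in KO alone, with 27 fragments. The log2 KO over WT after scaling was -0.30 at the first of these neighbouring summits and 1.06 at the second, and by deposited fold enrichment it was 0.14 and 0.89, so the sign at the first depends on the measure. Another GATA2 site at -11.9 kb had 78 and 84 fragments. The remaining GATA2 peaks were weak, with medians over the window of 19 and 23 fragments. RUNX1 had 2 peaks in WT and 4 in KO, the second shared 1 at 11.6 kb with 27 and 37 fragments.

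Ldb1 (chromosome 19, 46031525 to 46048145), the scaffold gene, had the highest median log2 KO over WT of RUNX1 among the members, at 0.74. After scaling to the lowest background of each list, 4 of its 6 shared RUNX1 summits were at least 1.5 times higher in KO, against 14.8% of shared RUNX1 summits in the whole list, and Tal1 had 4 of 8. With fragments scaled by their median over shared summits 2 of 6 passed, against 1415 of 23560 in the whole list. By deposited fold enrichment 2 of 6 passed, against 4913 of 23560. The summit before the start at 46039621 had 47 (34.5 to 62.5) fragments in WT against 82 (65.2 to 102) in KO, intervals that lay apart. Before the start at 46037070 RUNX1 had 27 and 49 fragments and GATA2 had 84 (67.002 to 104) and 155 (132 to 181), the intervals of GATA2 lying apart. The upstream start at 46045311 carried RUNX1 alone, 94 bases before it with 23 fragments in WT and 106 bases before it with 28 in KO. At -12.9 kb, in the gene Pprc1, a strong site held both factors with little difference, 112 and 97 GATA2 fragments and 100 and 102 RUNX1 fragments. A weaker RUNX1 summit in Pprc1, at -8.94 kb, had 29 and 53. RUNX1 peaks within Ldb1 numbered 4 in WT and 7 in KO, the 3 called in KO alone having 20 to 51 fragments.

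Cbfa2t3 (chromosome 8, 122625136 to 122699332), the longest member and the gene of the ETO2 corepressor, had the most sites. GATA2 had 17 peaks in WT against 22 in KO, and RUNX1 had 14 against 17. Every WT GATA2 peak was also called in KO. The strongest RUNX1 site of the 6 genes lay at -1.58 kb with 237 (208 to 269) fragments in WT against 262 (231 to 296) in KO, within the top 0.221% and 0.198% of the lists, and with 233 and 247 GATA2 fragments. Inside the gene, GATA2 had 241 and 268 fragments at 13.7 kb, 176 and 219 at 16.3 kb, and 202 and 239 at 32.8 kb, each with a weaker RUNX1 summit of 45 to 115 fragments in WT. The intervals of these strong sites overlapped between genotypes. At 32.8 kb deposited fold enrichment was lower in KO, by -0.99 for GATA2 and -0.60 for RUNX1 on the log2 scale. It was higher in KO at 13.7 kb, by 0.29 and 1.08, and at 16.3 kb, by 0.92 and 0.59. At -1.58 kb it differed by -0.15 and -0.06. The site over the side-by-side RUNX and GATA words had 112 (92.2 to 135) and 165 (141 to 192) GATA2 fragments and 89 (71.5 to 110) and 109 (89.5 to 131) RUNX1 fragments. A RUNX1 summit at 1.74 kb without GATA2 had 42 (30.3 to 56.8) fragments in WT against 92 (74.2 to 113) in KO, 2.15 times as many after scaling. At 4.58 kb GATA2 had 81 and 125 fragments, and RUNX1 was called there in KO alone with 24.

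With fragments scaled by the lowest background, shared summits of the members were shifted towards KO, as those of the whole lists were. The median log2 KO over WT was 0.16 over 45 shared GATA2 summits of the members and 0.11 over the whole list, and 0.27 over 45 RUNX1 summits against 0.19. Higher in KO by any amount were 30 of 45 GATA2 summits, against 60.8%, and 38 of 45 RUNX1 summits, against 70.8%. At least 1.5 times higher in KO were 8 of 45 GATA2 summits (17.8%), against 13.8% in the whole list, and 11 of 45 RUNX1 summits (24.4%), against 14.8%. At least 1.5 times lower were 2 GATA2 summits, against 6.59%, and 0 RUNX1 summits, against 4.58%. These counts depend on the scaling. With fragments divided by their median over shared summits, the whole-list medians became -0.05 and -0.03, and 22 GATA2 and 24 RUNX1 summits of the members were higher in KO by any amount. Of the whole lists, 23906 of 53508 GATA2 summits and 10894 of 23560 RUNX1 summits were then higher by any amount. At least 1.5 times higher were 7 of 45 GATA2 and 7 of 45 RUNX1 summits of the members, and lower 2 and 1. In the whole list that scaling gave 4267 GATA2 summits higher and 6087 lower, where the first scaling gave 7362 and 3528. For RUNX1 it gave 1415 higher and 2291 lower, where the first gave 3487 and 1080. With division by the median, more summits were thus lower than higher by at least 1.5 times in the whole lists, and the reverse held at the members. By any amount the reverse did not hold for GATA2, with 22 of 45 summits of the members higher in KO. These differences were not tested. By deposited fold enrichment, 11 of 45 GATA2 and 13 of 45 RUNX1 summits of the members were at least 1.5 times higher in KO and 3 and 2 lower. By that measure the whole lists had 9940 of 53508 GATA2 and 4913 of 23560 RUNX1 summits higher, and 5765 and 2233 lower. With the intervals divided by the lowest backgrounds as well, they lay apart with KO higher at 3 GATA2 and 3 RUNX1 summits, against 3.67% and 5.65% of the whole lists. As fragments without scaling, they lay apart at 5 and 3, the added GATA2 summits being those of Cbfa2t3 at 4.58 kb and over the word pair. The 3 GATA2 summits were those named at Tal1, Lmo2 and Ldb1, and the 3 RUNX1 summits those at Ldb1, Cbfa2t3 and in Trmt1 near Lyl1. Scaled intervals lay apart with KO lower at 0 summits of either factor, against 1.62% and 1.12%.

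**Figure D3:**
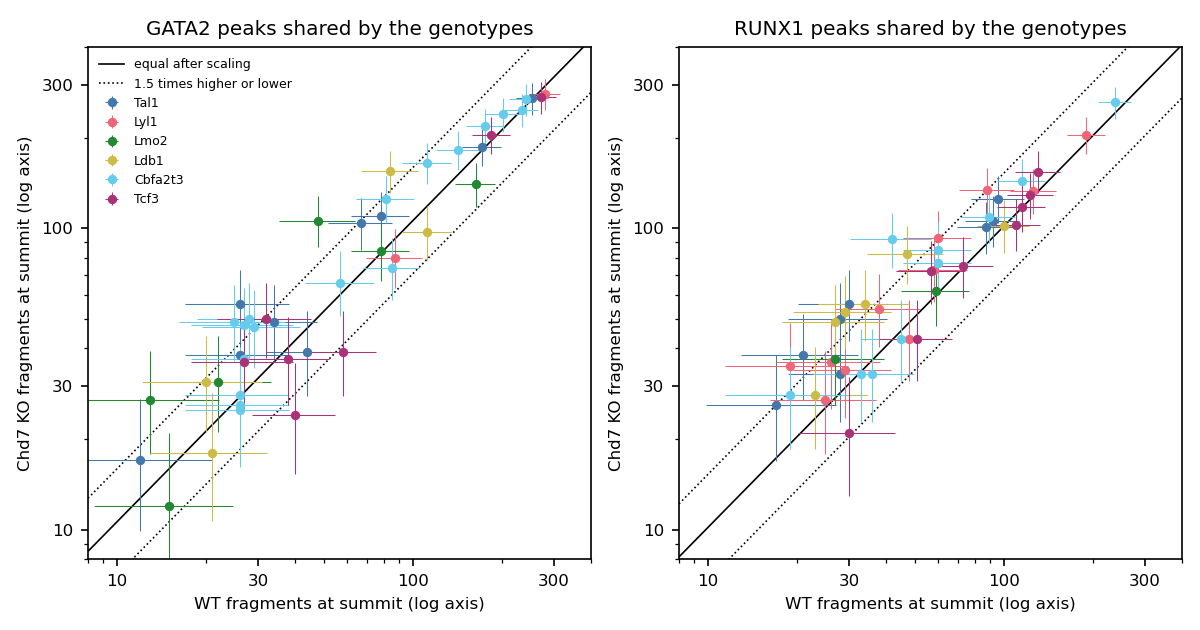
Fragments at summits called in both genotypes, WT against KO, on log axes with 95% Poisson intervals, coloured by gene; the solid line marks equality after scaling by the lowest background and the dotted lines 1.5-fold. The strongest summits lie near the line, and the 11 RUNX1 summits on or above the upper dotted line had 17 to 60 fragments in WT.

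Most peaks of the members were called in both genotypes, and the unshared ones were weak. Of the WT peaks, 45 of 50 GATA2 peaks (90%, exact Clopper-Pearson interval 78.2 to 96.7) and 47 of 49 RUNX1 peaks (95.9%, 86.02 to 99.5) were also called in KO, against 81.5% and 86.6% of the whole lists. Of the KO peaks, 45 of 60 GATA2 peaks (75%, 62.1 to 85.3) and 46 of 68 RUNX1 peaks (67.6%, 55.2 to 78.5) were also called in WT, against 68.8% and 69.6%. The 15 unshared KO GATA2 peaks had a median of 22 fragments, and the 45 shared ones 56. For RUNX1 these medians were 26.5 and 67. The members' peaks were stronger than average for GATA2, with 11 WT and 14 KO peaks in the top 10% of the lists by q, where 10.0% of all peaks lie.

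GATA2 and RUNX1 overlapped at the strongest site of each factor at each gene. RUNX1 overlapped 20 of 50 WT GATA2 peaks (40%, 26.4 to 54.8) and 24 of 60 KO peaks (40%, 27.6 to 53.5), against 22.5% of the whole list in each genotype. GATA2 overlapped 21 of 49 WT RUNX1 peaks (42.9%, 28.8 to 57.8) and 25 of 68 KO peaks (36.8%, 25.4 to 49.3), against 53.9% and 52.4%. The intervals of the GATA2 shares lay above the whole-list share, and that of the RUNX1 share lay below it in KO and included it in WT. Neighbouring peaks are not independent, and these differences were not tested. Lyl1 accounts for many of the unaccompanied RUNX1 peaks, with 2 of 11 overlapped in WT and 2 of 15 in KO. Where the factors overlapped, their summits lay a median of 23 bp apart in WT and 16 bp in KO, against 22 and 23 bp over all such pairs.

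S2P covered most of the bHLH genes, the E protein gene and the corepressor gene in both genotypes, and less than 50% of Lmo2 and Ldb1. At Tal1 98.7% of the gene lay under peaks in WT against 99.01% in KO, at Lyl1 100% in both, at Tcf3 95.4% against 91.6%, and at Cbfa2t3 85.4% against 86.8%. Lmo2 had 30.3% and 30.5%, and Ldb1 had 47.1% and 31.8%. Coverage of at least 50% was thus found at 4 of 6 members in each list, against 16.7% of 19304 genes of at least 2 kb in WT and 17.1% in KO. Lower by at least 10 percentage points in KO was 1 of 6 members, Ldb1 at -15.3 points, against 2.02% of these genes and 6.68% of those covered for at least 25% in WT. With 5 kb added on either side the difference at Ldb1 was -8.65 points, under this limit. Higher by at least 10 points were 0 members, against 2.98%, and higher by any amount were 3, against 31.6%. That share includes genes without any coverage. Of the 9986 genes with any coverage, 6095 were higher in KO by any amount. Since coverage cannot pass 100%, Tal1, Lyl1 and Tcf3 had little room to be higher. Coverage does not separate the strands: the noncoding genes Gm33786 within Tal1 and Gm38515 within Lmo2 share their bases, and Lyl1 overlaps the end of Nfix. The S2P peak over Lyl1 was 9644 bp long in WT and 16509 bp in KO and reached into the neighbouring gene Trmt1 in both.

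**Figure D4:**
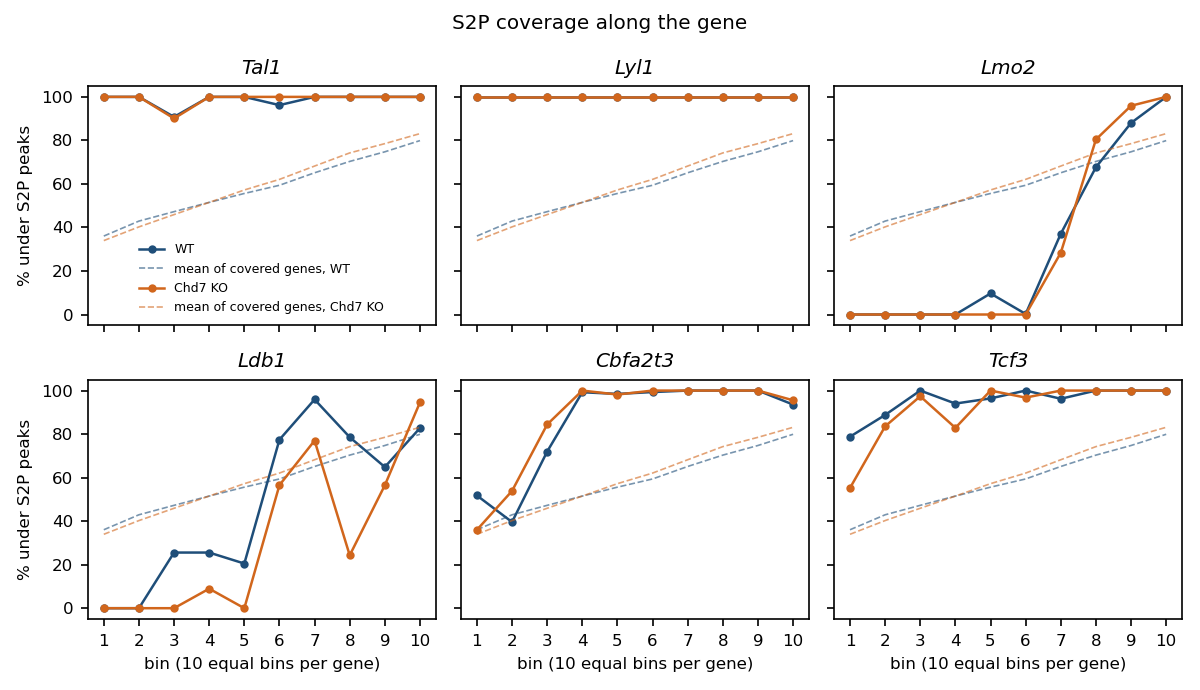
Percent of each of 10 equal bins of the gene under S2P peaks, in the gene's direction (Lmo2 from its low-coordinate end), in WT (blue) and KO (orange), with the mean of 4553 genes covered for at least 25% in either list (dashed). Lmo2 rises from 0 in bins 1 to 4 to 100% in bin 10, and Ldb1 is lower in KO in bins 3 to 9.

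Along the genes, coverage was uneven where it was partial. Over 4553 covered genes the mean went from 36.05% in bin 1 to 79.9% in bin 10 in WT, and from 33.97% to 83.1% in KO. At Lmo2 bins 1 to 4 were at 0 in both genotypes and bin 10 was at 100%, with the strong GATA2 sites lying at the uncovered end. Ldb1 had 0 in bins 1 and 2, which hold its first listed start. In bins 3, 4 and 5 it had 25.6%, 25.6% and 20.5% in WT and 0%, 8.97% and 0% in KO. Bin 8 of Ldb1 had 78.6% in WT and 24.3% in KO, whereas bin 10 had 82.8% and 94.6%. The lower coverage thus fell within the gene and not at its end, where the strongest S2P peak had a deposited fold enrichment of 9.35 in WT and 11.1 in KO. S2P peaks touching Ldb1 numbered 15 in WT and 8 in KO. Pprc1, upstream of Ldb1, had 92.95% and 82.6%. Tcf3 was lower in KO in bin 1, with 78.8% and 55.2%, and in bin 4, with 94.03% and 82.9%, and Lmo2 was higher in bin 8, with 67.7% and 80.4%. Cbfa2t3 differed by at least 10 points in bins 1 to 3, with 51.8%, 39.6% and 71.97% in WT and 36.0%, 53.9% and 84.4% in KO.

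Partner and paralog genes of the complex were compared by the same measures, over a list of 24 genes, all of which were found. GATA2 lay at 21 of them in WT and 22 in KO, and RUNX1 at 18 in each, with medians of 6.5 and 10 peaks for GATA2 and of 6.5 and 7 for RUNX1. KO held more GATA2 peaks at 16 of them and fewer at 4, against 41.8% and 13.8% of all genes. It held more RUNX1 peaks at 12 and fewer at 2, against 31.8% and 9.22%. The most GATA2 peaks in WT were at the E protein gene Tcf12 (58 in WT and 54 in KO), Runx1 (34 and 33), the LDB1-stabilising gene Ssbp2 (30 and 36) and Zfpm1 (26 and 28), all in windows of 96.01 to 308 kb. RUNX1 peaks in WT were most numerous at Tcf12 (20 and 18), Runx1 (19 and 30), Ssbp3 and Zfpm1 (18 and 21, 18 and 22). Runx1t1, a paralog of Cbfa2t3, and Id2, whose product sequesters E proteins, had 0 peaks in all 4 lists. S2P covered at least 50% of 7 of the 24 genes in each genotype, against 16.7% and 17.1% of genes of at least 2 kb. The next counts concern S2P coverage as well. It was lower in KO by at least 10 points at 1 gene, Ssbp4 (37.7% and 5.50%), whose family binds LDB1. It was higher at 1, Id1 (20.2% and 45.8%), a gene shorter than 2 kb. Ssbp3, of the same family as Ssbp4, had 78.1% and 84.3%. Named after their values were seen, the paralogs Tal2, Lmo1 and Ldb2 had 0% in both lists, 0 RUNX1 peaks, 1, 4 and 2 GATA2 peaks in WT and 2, 7 and 10 in KO. Other paralogs on the list differed from these. Lmo4 had 4 RUNX1 peaks in WT and 5 in KO, with S2P coverage of 20.2% and 26.5%. Cbfa2t2 had 9 and 13, with 18.7% and 19.3%.

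Likeness was measured over 6 values, the log2 of 1 plus the peak number in each factor list and the S2P coverage in each genotype, each divided by its SD over 19304 genes. Tal1 lay closest to Prdx6, Eif4g1 and Atp5b, at distances of 0.207 to 0.257, and to Tcf3 among the members, at 0.409. Tcf3 lay closest to Chd4, Prkab1 and Tkt (0.221 to 0.338), and Cbfa2t3 to Epb41, 9030025P20Rik and Ago2 (0.286 to 0.491). The nearest genes were Il4i1b, Maz and Rplp2 for Lyl1 (0.448 to 0.565), Fancm, Nelfa and BC055324 for Lmo2 (0.155 to 0.243), and Pitpnm1, Trim8 and Erf for Ldb1 (0.341 to 0.444). Trim8 and Erf, like Ldb1, had less S2P in KO, with 50.7% and 32.3%, and 53.9% and 38.02%, a difference that entered the choice. The median distance between 2 members was 2.85, and no such median was computed for other gene pairs. The 3 nearest genes of each member lay closer to it than any other member did. They were picked by smallest distance out of 19304 genes, so this cannot show how alike the members are.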

How the data were processed

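ChIP-seq peak lists of GATA2, RUNX1 and S2P were used from WT and KO G1ER cells (14 samples, 8 immunoprecipitated and 6 input). Per the submitters' processing notes, Bowtie2 2.2.1, MACS2 2.1.0 and the build GRCm38 (mm10) were used, with roles and settings not given in the sources used here. The 6 lists are narrowPeak tables with no header line. In them the authors deposited a score, equal to the −log10 q multiplied by 10 and truncated. They also deposited a fold enrichment, which is summit pileup divided by local background, each with 1 added. Their deposited −log10 p and −log10 q reach down to a q of about 0.05, and the deposited summit is an offset in bp. The S2P lists each stand for 2 replicates, and how these were combined is not given in the sources used here.

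Whole summit fragments and local background were solved from the deposited fold and −log10 p under a Poisson model, which left 100% of factor summits within 0.005 of the deposited −log10 p and was tested on simulated data. Library totals are not in the lists, so depth is known only as fragments per summit, with 95% Poisson intervals. KO over WT ratios divide fragments by the lowest background of their list (1.48 and 1.57 for GATA2, 1.37 and 1.39 for RUNX1) and use peaks that overlap 1 to 1 by at least 1 bp. This lowest background is a quantile close to the bottom of the solved backgrounds, not their minimum. Peaks were assigned to genes by their summit, inside the gene or up to 20 kb away, and S2P coverage is the percent of the gene under peaks. Positions are 1-based. A summit was counted past 1.5-fold and a gene past 10 percentage points. The members and lists were chosen with earlier results of these data known. All 6 members are described. Partner genes were named when among the 4 with the most peaks of a factor in WT, with the largest S2P difference in either direction, or with no peak. Alternatives were other windows, q limits, overlaps and scalings. With 1 list per group no test was made, and input libraries were not analysed here. Work was done in Python 3.11.15 with numpy 2.4.6, pandas 2.3.3 and scipy 1.17.1.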

Additional observations from a re-analysis of the deposited data

How the results depend on the processing

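Window size set the peak counts. In the order WT GATA2, KO GATA2, WT RUNX1 and KO RUNX1, the gene bodies alone held 21, 27, 18 and 31 peaks, and 50 kb on either side 80, 93, 74 and 98. With 5 kb the counts were 31, 40, 33 and 50, and at a −log10 q of at least 10 they were 33, 41, 29 and 43. KO held more peaks than WT under each of these settings. With each KO list shortened to the length of the WT list, a setting chosen after seeing the data, 56 GATA2 and 57 RUNX1 peaks remained in the KO counts. The median log2 KO over WT of shared summits went from 0.16 to -0.0025 for GATA2 and from 0.27 to 0.046 for RUNX1 with fragments divided by their median over shared summits. S2P coverage with 5 kb on either side was 68.8% in WT and 69.6% in KO at Tal1 and 82.2% and 79.005% at Tcf3. The difference at Ldb1 was -14.7 points at a −log10 q of at least 5 and -8.65 points with 5 kb on either side, under the limit of 10. Of 84 recomputed values, 67 kept within the limits set for a change, such as 1.5 times for a count and 10 points for coverage. These limits are wide: the -8.65 points at Ldb1 and the 98 KO RUNX1 peaks with 50 kb are among the 67. No paired analysis was possible because the lists are not separate for the replicates, which also means that no replicate could be left out.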
